A study of Arabidopsis thaliana with 16 samples.

Results

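Gynoecia of the seu-3 ant-1 double mutant (seu ant) were compared with gynoecia of the ant-1 single mutant (ant), to find what reducing SEU does to transcript levels when ANT is already missing. The comparison rests on 8 of the 16 ATH1 arrays of the series, 4 of each genotype, chosen by the genotype in their labels alone. Both groups carried ant-1 (aintegumenta-1), and seu-3 (seuss-3) was added in the double mutant. The same step with ANT present was read from the other 8 arrays, 4 of the seu-3 single mutant (seu) and 4 of Col-0 wild type. Every array held 1 pool of 15 to 25 gynoecia, dissected by hand from flowers of stages 8 to 10, so that the spread between arrays is a spread between pools and not between plants. Both mutations were carried by the whole plant, not by the gynoecium alone.

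SEUSS is a transcriptional adaptor that does not bind DNA by itself. It acts with LEUNIG and is brought to its targets by DNA-binding partners, among them MADS-domain factors. AINTEGUMENTA is an AP2-domain transcription factor that promotes organ growth. In the gynoecium both act in the carpel margin meristem (CMM), the tissue along the fused carpel edges that gives rise to the ovules, and the double mutant is known to lose this tissue and its ovules. These are bulk samples, in which fewer cells of a type and less RNA per cell cannot be told apart.

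The deposited values are probe set signals on a linear scale. They were set to a floor of 16 where they lay below it and were compared as log2 values. A transcript was called when its limma adjusted p over all 22746 probe sets was under 0.05 and its log2 difference exceeded 0.35. Each log2 difference below is seu ant minus ant, with its standard error (SE) for 4 arrays against 4, unless another comparison is named, and sizes written as a rise or fall by a number are log2 differences too. The difference between backgrounds is the log2 difference in seu ant against ant minus that in seu against wild type.

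SEU itself was measured first, as a check on the labels. Its signal was 235, 271, 267 and 273 in seu ant and 909.7, 813, 749 and 943 in ant. The seu ant arrays all lay far below the ant arrays, with 30.7% of the ant signal left and a log2 difference of -1.70 (SE 0.17, adjusted p = 3.22e-05). In the wild-type background SEU also fell, with a log2 difference of -1.72 (SE 0.17, adjusted p = 2.74e-04), and the 2 steps differed by 0.02 (SE 0.24, adjusted p = 1). The amount of SEU transcript lost was thus alike in both backgrounds within the error of the arrays. The ANT transcript was not analysed here.

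Technical values of the 8 arrays were close to each other. The median signal was 153 to 174 on the ant arrays and 167 to 178 on the seu ant arrays, and over the 16 arrays the share of probe sets at the floor was 20.0 to 24.4%. Among the markers of the tissue, only SPT (SPATULA), a bHLH factor of the carpel margin, was paired with a probe set here of 6 carpel genes. A gene is counted as measured below where a probe set was paired with it, and 8893 probe sets were not paired with 1 gene, so that lists may be covered in part. The SPT signal, 645 to 994 on the ant arrays and 365 to 534 on the seu ant arrays, was far above the floor. Of 10 tapetum and pollen markers only AMS was paired with a probe set, near the floor in ant (3.32 to 39.3) and in seu ant (2.31 to 35.0). The ovule markers INO and SPL lay near the floor in both genotypes, with a summed signal of 28.9 to 51.1 across the ant arrays and 9.20 to 57.8 across the seu ant arrays.

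**Figure D1:**
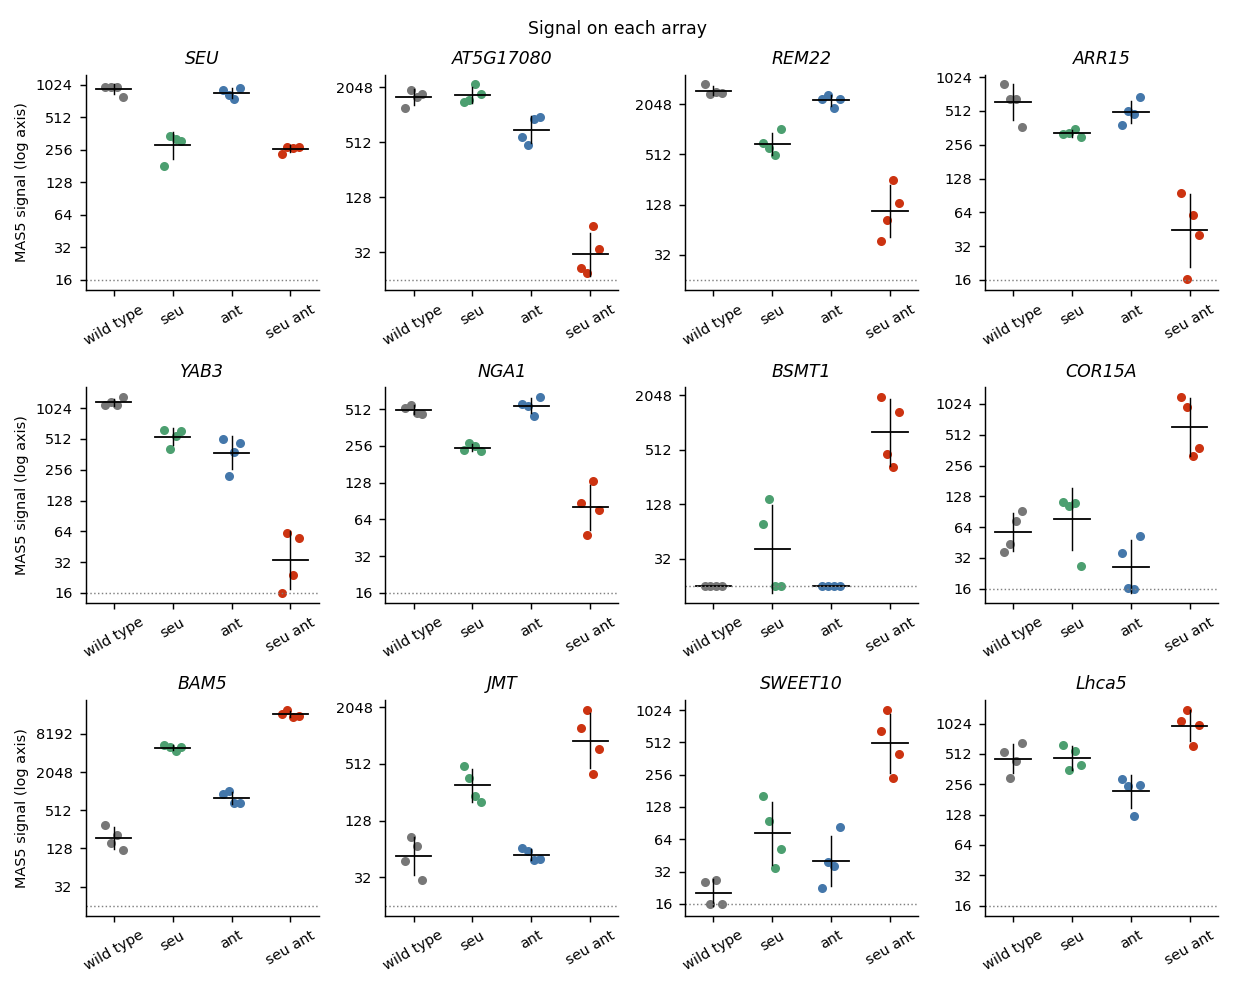
Signal on each of the 16 arrays (points, log axis) for 12 transcripts, by genotype, with the mean of the log2 values (black bar), 1 SD on each side (line) and the floor of 16 (dotted). SEU drops alike in both backgrounds, AT5G17080, REM22, ARR15, YAB3 and NGA1 have their lowest mean in seu ant, and BSMT1, COR15A, JMT, SWEET10 and BAM5 have their highest mean there.

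Reducing SEU changed many more transcripts without ANT than with it. In seu ant against ant 4327 probe sets were called, 19% of all 22746, of which 2121 were under-expressed (9.32%) and 2206 over-expressed (9.70%). The corresponding counts in seu against wild type were 498 (2.19%), 208 (0.914%) and 290 (1.27%). Under-expression was mostly shallow, with a median of -0.58 among the called probe sets, whereas the over-expressed ones had a median of 0.99. Changes of more than 1 log2 unit were seen for 311 under-expressed and 1092 over-expressed probe sets, against 78 and 174 in the wild-type background. The floor limits how far a dim probe set can fall, and its part in these sizes was not tested. Over all probe sets the median log2 difference was 0.00 without ANT and -0.02 with it. When each array was centred on its own median the split in seu ant against ant became 2863 lower and 1944 higher, so the near balance of the 2 directions depends on the scaling. With only probe sets above the 40th percentile of mean level the split was 2343 lower and 2043 higher.

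Among called probe sets 1814 of the under-expressed and 1942 of the over-expressed had 4 seu ant arrays that did not overlap the 4 ant arrays. Such separation was seen in 11.2% of all probe sets for lower and 10.4% for higher seu ant arrays.

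Whether the step itself differed between backgrounds was tested as an interaction. This difference was called for 1156 probe sets (5.08%), 527 in the negative direction (2.32%) and 629 in the positive direction (2.77%). Centring each array on its own median turned this split into 1007 and 454. Of the transcripts under-expressed in seu ant against ant, 451 also had a called negative difference, which is 21.3% of them. Of the over-expressed ones 572, or 25.9%, had a called positive difference. For the remaining transcripts the larger number called without ANT does not by itself show a larger effect. Leaving out 1 array moved the count of called differences between 682 and 1454, with the lowest count without seu replicate 3.

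The transcripts that responded to SEU with ANT present mostly responded without it as well. Under-expression in both backgrounds was called for 136 probe sets, which is 65.4% of those under-expressed in seu and 6.41% of those under-expressed in seu ant against ant. Over-expression in both was called for 222, or 76.6% and 10.1% of the respective lists. For 121 of the 136 and 201 of the 222 the difference between backgrounds was not called. Only 3 probe sets went from lower in seu to higher in seu ant against ant, and 3 went the other way. The 2 comparisons share no array, only the estimate of spread. Across probe sets, which are not independent replicates, their log2 differences had a Pearson correlation of 0.50.

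**Figure D2:**
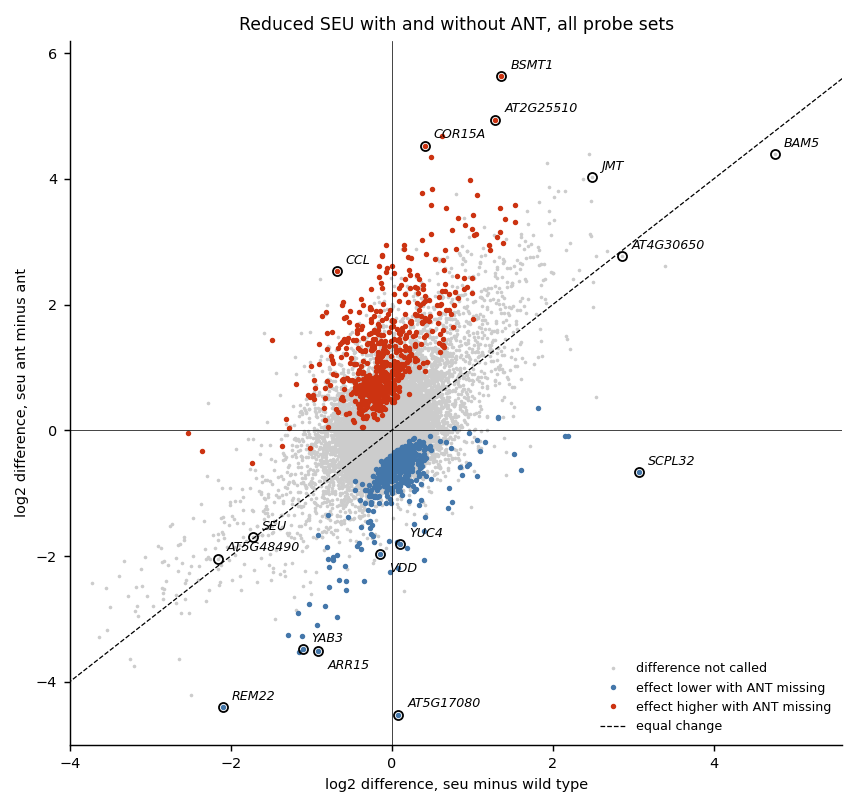
Log2 difference of each probe set in seu ant against ant (vertical) and in seu against wild type (horizontal), with probe sets whose difference between backgrounds was called in blue (527, lower without ANT) and red (629, higher without ANT). The cloud is taller than it is wide, with an SD of 0.60 on the vertical and 0.40 on the horizontal axis.

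Among the 12 largest falls, genes of transcriptional and hormone regulation stood beside genes named here only by their locus. The deepest fall was that of AT5G17080. Its signal was 21.5, 18.9, 62.4 and 34.5 in seu ant and 577, 479, 925 and 955 in ant. Where ANT was present its signal was 1422, 1494, 2194 and 1713 in seu and 1204, 1923, 1607 and 1714 in wild type. The seu and wild-type arrays overlapped, whereas the seu ant arrays lay far below the ant arrays, with 4.35% of the signal left. The log2 difference was -4.52 (SE 0.34, adjusted p = 6.94e-06) without ANT and 0.08 (SE 0.34, adjusted p = 0.996) with ANT, and the difference between backgrounds was -4.60 (SE 0.49, adjusted p = 0.00117), the largest negative one among the genes named.

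REM22, a B3-domain factor of the REPRODUCTIVE MERISTEM family, fell next most. Its signal was 46.4, 84.8, 253 and 134 in seu ant and 2352, 2638, 1843 and 2326 in ant. The groups did not come near each other, and 4.74% of the ant signal was left, a log2 difference of -4.40 (SE 0.39, adjusted p = 1.73e-05). With ANT present the fall was -2.10 (SE 0.39, adjusted p = 0.0149), from 3530.0, 2726, 2834 and 2762 in wild type to 702, 606, 509 and 1035 in seu. The 2 backgrounds differed by -2.30 (SE 0.56, adjusted p = 0.0332), a call that was lost in 10 of 25 alternative settings. REM22 was thus strongly under-expressed in both backgrounds, and the greater depth of its fall without ANT is the less certain of these values.

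ARR15, a type-A response regulator that is induced by cytokinin and dampens its signalling, had a signal of 94.9, 16.2, 61.0 and 40.5 in seu ant and 387, 512, 479 and 675 in ant. All seu ant arrays lay below all ant arrays, at a log2 difference of -3.51 (SE 0.43, adjusted p = 1.21e-04). The value in seu against wild type was -0.91 (SE 0.43, adjusted p = 0.383) and was not called. None of the other 8 cytokinin genes measured was called, and their values ran from -0.36 to 0.57. The median level of the list in ant was 4.43 on the log2 scale, near the floor, where a fall can hardly be seen. For ARR15 the difference between backgrounds was -2.60 (SE 0.60, adjusted p = 0.0291), lost in 5 of 25 alternatives.

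AT1G68780 encodes a leucine-rich repeat protein. Its signal was 31.5, 32.5, 76.7 and 38.8 in seu ant and 523, 432, 482 and 488 in ant. The fall to 8.70% of the ant level was -3.52 (SE 0.22, adjusted p = 1.86e-06), against -1.15 (SE 0.22, adjusted p = 0.0151) with ANT present, and the difference between backgrounds was -2.38 (SE 0.31, adjusted p = 0.00291). This difference was kept in all 25 alternatives. AT1G03720 followed the same pattern, with 27.6, 32.5, 60.2 and 47.7 in seu ant and 370.4, 316, 454 and 427 in ant. It fell in both backgrounds without overlap of the arrays, at -3.28 (SE 0.21, adjusted p = 2.09e-06) without ANT and -1.11 (SE 0.21, adjusted p = 0.0149) with ANT. AT1G03710, its neighbour in the gene table, also fell, by 1.84 on the log2 scale (SE 0.14, adjusted p = 6.94e-06).

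AT4G35070 fell in both backgrounds without a called difference between them. Its signal was 16.4, 52.3, 26.7 and 57.6 in seu ant and 418, 386, 433 and 457 in ant. The log2 difference was -3.64 (SE 0.36, adjusted p = 3.56e-05) without ANT and -2.64 (SE 0.36, adjusted p = 0.0024) with it. The remaining large falls were those of AT1G74490 (-3.25), AT2G34700 (-3.01), AT5G66940 (-2.97) and chr31 (-2.60), with adjusted p from 9.20e-06 to 1.58e-04. AT1G74490 and AT5G66940 fell further without ANT, with differences of -1.97 and -2.29 that were kept in all 25 alternatives. A second probe set of chr31 also fell, by 2.17 on the log2 scale (SE 0.21, adjusted p = 3.05e-05).

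In seu ant against ant the REM family was under-expressed almost throughout. Members of this family are B3-domain DNA-binding proteins, many of them expressed in meristems and reproductive organs. Of 10 members measured 9 fell and none rose, with a median of -1.52, beside 8.81% lower and 8.32% higher over all probe sets paired with a gene and a median of 0.00. In seu against wild type 2 of the 10 fell, REM22 and AT3G46770, where 0.787% of probe sets paired with a gene were called lower and 1.03% higher. The difference between backgrounds was called lower for 3 members, REM22, VDD and AT5G09780, and over all probe sets paired with a gene for 2.14% lower and 2.5% higher. The family was prominent in earlier results of these data, so its count is no independent evidence of a direction. The tenth member, AT2G35310, had a value of 0.03 (SE 0.10, adjusted p = 0.884).

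VDD (VERDANDI), a REM factor needed in the female gametophyte, fell without ANT and was not called with ANT present. Its signal was 58.4, 67.4, 52.5 and 50.3 in seu ant and 243, 253, 158 and 253 in ant. On the arrays with ANT it was 574, 584, 622 and 569 in seu and 737, 742, 555 and 589 in wild type. The seu and wild-type arrays overlapped fully, while the seu ant arrays were all far below the ant arrays, which themselves lay under wild type. The log2 difference was -1.97 (SE 0.15, adjusted p = 6.99e-06) without ANT and -0.15 (SE 0.15, adjusted p = 0.749) with it, and their difference of -1.82 (SE 0.21, adjusted p = 0.00181) was kept in all 25 alternatives.

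REM1 had a signal of 52.7, 88.4, 97.3 and 45.6 in seu ant and 167, 183, 231 and 243 in ant. Its groups did not overlap, and it fell by 1.59 (SE 0.29, adjusted p = 0.00173). Its value in seu against wild type was -0.52 (SE 0.29, adjusted p = 0.495) and was not called. The other members that fell were AT3G46770 (-2.24), AT5G09780 (-1.98), REM15 (-1.44), REM16 (-1.18), AT4G31615 (-1.11) and AT2G16210 (-0.95). Of these, AT5G09780 had a called difference between backgrounds of -1.30 (SE 0.32, adjusted p = 0.0337), lost in 10 of 25 alternatives. AT5G09780 and AT2G16210 fell from levels that were raised in ant. Against wild type they were at 1.45 and 1.08 in ant (limma adjusted p = 0.0044 and 0.0017). In seu ant they were at -0.53 and 0.14 against wild type. The arrays of AT4G31615 overlapped, and its call was lost in 4 of the 8 fits without 1 array of either genotype and in the fit of the 8 arrays alone.

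A second group of B3 factors, the NGATHA genes that promote style and stigma development, fell as well. Of 4 genes measured 3 fell and none rose, with a median of -1.81, beside 8.81% lower and 8.32% higher over all probe sets paired with a gene. NGA1 had a signal of 86.9, 47.4, 131 and 76.9 in seu ant and 562, 546, 454 and 643 in ant. It fell without overlap, at -2.77 (SE 0.22, adjusted p = 9.20e-06). The value with ANT present was -1.03 (SE 0.22, adjusted p = 0.0319), and the difference of -1.74 (SE 0.32, adjusted p = 0.0113) was kept in all 25 alternatives.

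NGA2 had a signal of 32.4, 70.3, 74.0 and 48.4 in seu ant and 255, 221, 243 and 263 in ant. Its log2 difference was -2.20 (SE 0.25, adjusted p = 8.02e-05), and it was -1.48 (SE 0.25, adjusted p = 0.00827) with ANT present. NGA3 was dimmer, at 38.4, 32.5, 50.5 and 47.8 in seu ant and 85.8, 117, 101 and 152 in ant, with a log2 difference of -1.42 (SE 0.25, adjusted p = 0.00146). For NGA2 and NGA3 the difference between backgrounds was not called, at -0.72 and -0.39. NGA4 was at 49.0, 90.0, 41.5 and 68.5 in seu ant and 64.8, 118, 106 and 114 in ant, with overlapping groups and a value of -0.72 (SE 0.39, adjusted p = 0.229).

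**Figure D3:**
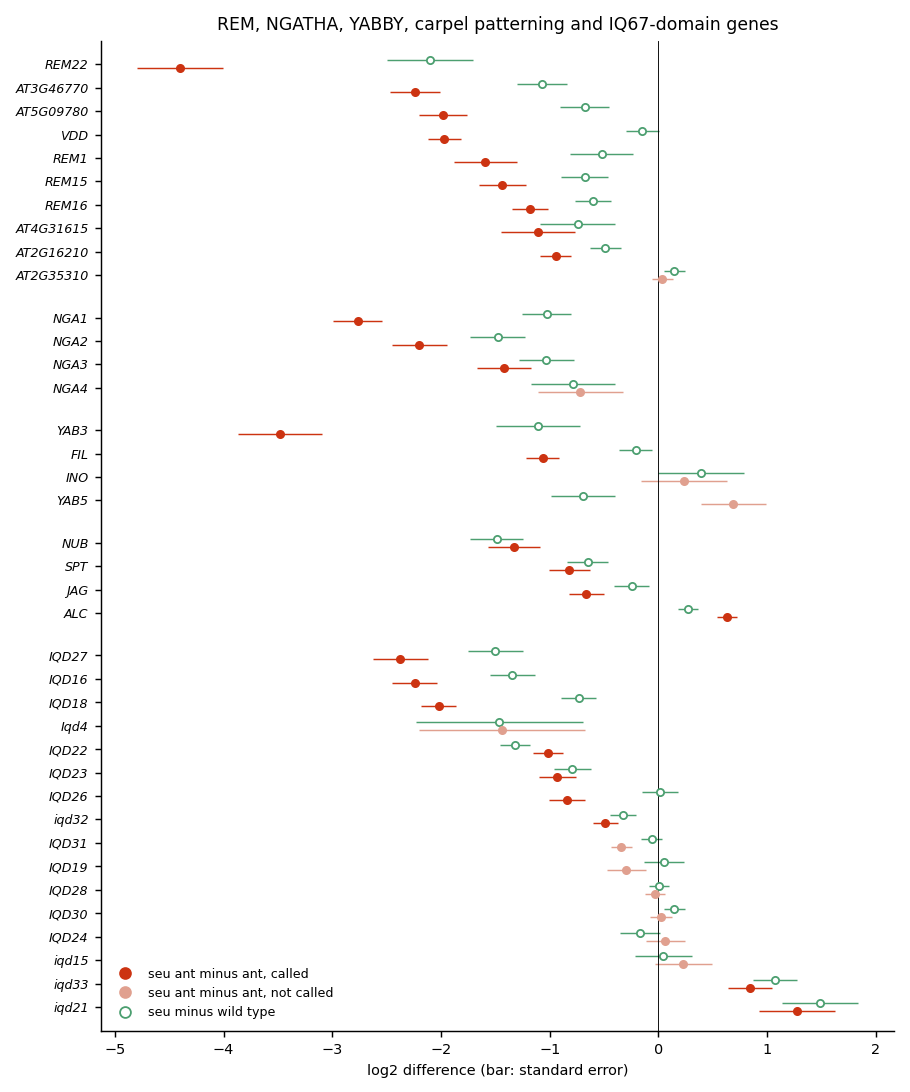
Log2 differences (points) with SE (lines) for all measured REM, NGATHA, YABBY, carpel patterning and IQ67-domain genes, in seu ant against ant (filled, paler where not called) and in seu against wild type (open). REM22, VDD and YAB3 lie further from 0 without ANT than with it, and NUB, NGA4 and iqd21 have nearly the same value in both backgrounds.

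The YABBY genes act on the abaxial side of lateral organs. Of 4 members measured 2 fell, beside 8.81% over all probe sets paired with a gene. YAB3 had a signal of 5.18, 61.1, 23.9 and 54.9 in seu ant and 509.9, 220.0, 382 and 468 in ant. All seu ant arrays lay below all ant arrays, with 1 of them under the floor, and the log2 difference was -3.48 (SE 0.38, adjusted p = 6.45e-05). The levels with ANT present were 629.7, 406, 546 and 614 in seu and 1090.1, 1174, 1098 and 1313 in wild type, which did not overlap either, but its difference of -1.11 (SE 0.38, adjusted p = 0.194) was not called. Between backgrounds YAB3 differed by -2.38 (SE 0.54, adjusted p = 0.027), a call lost in 5 of 25 alternatives.

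FIL (FILAMENTOUS FLOWER), the closest relative of YAB3, was far brighter. Its signal was 3806, 4257, 6764 and 4463 in seu ant and 9789, 9894, 9976 and 9695 in ant. It fell to 47.8% of the ant level, a log2 difference of -1.06 (SE 0.15, adjusted p = 3.33e-04), against -0.21 (SE 0.15, adjusted p = 0.618) with ANT present. The difference between backgrounds of -0.85 (SE 0.21, adjusted p = 0.0371) was called but was lost in 15 of 25 alternatives. The other YABBY genes, YAB5 and INO, were not called, with values of 0.69 (SE 0.30, adjusted p = 0.124) and 0.24 (SE 0.40, adjusted p = 0.758). YAB5 passed the threshold when seu ant replicate 4 was left out, at 0.94 (adjusted p = 0.0309).

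Among adaxial-abaxial polarity genes, PHV (PHAVOLUTA), a class III HD-ZIP factor of the adaxial side, fell. Its signal was 717, 811, 943 and 885 in seu ant and 2029.5, 1652, 2012 and 2447 in ant, with no overlap. The log2 difference was -1.27 (SE 0.16, adjusted p = 1.59e-04) without ANT and -0.29 (SE 0.16, adjusted p = 0.493) with it, and the difference between them was -0.98 (SE 0.23, adjusted p = 0.029), lost in 6 of 25 alternatives. KAN2 and KAN3, the other polarity genes measured, were not called.

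Of 4 genes of carpel and fruit patterning 3 fell and 1 rose. Over all probe sets paired with a gene 8.81% were called lower and 8.32% higher. NUB (NUBBIN), a zinc finger factor, had a signal of 59.5, 105, 141 and 66.6 in seu ant and 197, 221, 265 and 202 in ant. Its log2 difference was -1.33 (SE 0.24, adjusted p = 0.00183), beside -1.49 (SE 0.24, adjusted p = 0.0067) with ANT present, and the difference between backgrounds was 0.16 (SE 0.34, adjusted p = 0.854). JAG (JAGGED), the close relative of NUB, fell by 0.66 (SE 0.16, adjusted p = 0.0105). SPT fell by 0.82 (SE 0.19, adjusted p = 0.00703), with the signals given above. ALC (ALCATRAZ), a bHLH factor related to SPT that acts at the fruit margins, rose from 2193, 2651, 2041 and 2321 in ant to 3315, 3579.7, 3291 and 4047 in seu ant, a log2 difference of 0.63 (SE 0.09, adjusted p = 3.96e-04). SPT and ALC, which are close relatives, thus moved in opposite directions without overlap of the arrays.

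Auxin genes changed in a few members only. YUC4, an enzyme of auxin synthesis, had a signal of 49.0, 90.5, 105 and 84.8 in seu ant and 232, 257, 339 and 293 in ant. Where ANT was present it was 285, 310.2, 208 and 263 in seu and 226, 289, 236 and 238 in wild type, in overlapping ranges. The log2 difference was -1.81 (SE 0.21, adjusted p = 8.41e-05) without ANT and 0.10 (SE 0.21, adjusted p = 0.925) with ANT, and the difference of -1.91 (SE 0.30, adjusted p = 0.00577) was kept in all 25 alternatives. Of the 6 genes of auxin synthesis and transport, WAG2, a kinase that acts on auxin carriers, also fell (-1.47, SE 0.25, adjusted p = 0.00107), and the other 4 lay between -0.30 and 0.12. The 2 falls among 6 genes stand beside 8.81% over all probe sets paired with a gene. No member of this list was called in seu against wild type.

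The Aux/IAA repressors and GH3 enzymes, many of which are induced by auxin, were called in both directions, with 3 of 13 falling and 2 rising, beside 8.81% lower and 8.32% higher over all probe sets paired with a gene. IAA30 had a signal of 41.7, 73.5, 75.2 and 77.5 in seu ant and 282, 241, 198 and 250.1 in ant. It fell by 1.89 (SE 0.19, adjusted p = 3.84e-05), whereas the value with ANT present was -0.39 (SE 0.19, adjusted p = 0.415), a difference of -1.50 (SE 0.27, adjusted p = 0.0107) that was kept in all 25 alternatives. IAA33 ran the other way, with 73.3, 80.1, 84.6 and 97.7 in seu ant and 15.6, 27.7, 1.45 and 13.0 in ant, a log2 difference of 2.18 (SE 0.30, adjusted p = 2.85e-04) and 3 ant arrays under the floor. IAA18 and GH3.3 fell, at -1.12 (SE 0.17, adjusted p = 6.16e-04) and -0.92 (SE 0.23, adjusted p = 0.0124). IAA1 rose by 1.49 (SE 0.39, adjusted p = 0.0151), with 2 ant arrays under the floor, and its value ran from 0.99 to 1.85 over the alternatives. Outside these lists GID1B, a gibberellin receptor, fell from 473, 321, 304 and 501 in ant to 117, 145, 159 and 98.0 in seu ant, a log2 difference of -1.61 (SE 0.25, adjusted p = 5.92e-04).

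Homeobox genes of the HD-ZIP II class moved in opposite directions. HAT1 had a signal of 1214, 1108, 976 and 1132 in seu ant and 408, 369, 369.8 and 338 in ant. It rose by 1.58 (SE 0.15, adjusted p = 2.46e-05), and by 1.38 (SE 0.15, adjusted p = 3.97e-04) with ANT present. HAT2, its close relative, had 155, 195, 312 and 277 in seu ant and 492, 473, 332 and 487 in ant, and fell by 0.96 (SE 0.19, adjusted p = 0.00257), while its value with ANT present was 0.08 (SE 0.19, adjusted p = 0.943). The difference of HAT2 between backgrounds was -1.04 (SE 0.26, adjusted p = 0.039), lost in 14 of 25 alternatives. KNAT4 of the KNOX family rose by 1.54 (SE 0.34, adjusted p = 0.00553). Of 6 homeobox genes measured 1 fell and 2 rose, beside 8.81% lower and 8.32% higher over all probe sets paired with a gene.

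The cell cycle and DNA replication list shifted down by a little. All 9 genes measured had values below 0, from -0.70 to -0.13 with a median of -0.40, and 4 of them fell, beside 8.81% over all probe sets paired with a gene. The largest fall was that of PRL (PROLIFERA), a subunit of the helicase that licenses replication. Its signal was 1759, 2540.1, 2399 and 2173 in seu ant and 3443, 3219.6, 4302 and 3395 in ant, without overlap, and it fell by 0.70 (SE 0.13, adjusted p = 0.00207). POLD3, a subunit of DNA polymerase delta, fell by 0.50 (SE 0.10, adjusted p = 0.00306), and AUR1, a mitotic kinase, fell by 0.50 (SE 0.14, adjusted p = 0.0198), a call lost in 5 of 18 alternatives. ICU2, the catalytic subunit of DNA polymerase alpha, fell by 0.53 (SE 0.18, adjusted p = 0.0482), but its arrays overlapped and the call was lost in 10 of 18 alternatives. In seu against wild type none of the 9 was called.

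Of 4 genes of sporogenous cell fate and meiosis 2 fell, beside 8.81% over all probe sets paired with a gene. EMS1, a receptor kinase that sets the number of sporogenous cells in the anther and is also transcribed in the gynoecium, had a signal of 1139, 1419, 1516 and 1320.2 in seu ant and 4239.6, 2981, 3283 and 3580.2 in ant. Its arrays did not overlap, and it fell in both backgrounds, at -1.38 (SE 0.12, adjusted p = 1.15e-05) without ANT and -0.55 (SE 0.12, adjusted p = 0.0266) with ANT. The difference of -0.83 (SE 0.16, adjusted p = 0.0152) was kept in all 25 alternatives. SDS, a meiotic cyclin, fell by 0.68 (SE 0.21, adjusted p = 0.0386), a call lost in 10 of 18 alternatives. Among ovule genes TSO1, a cysteine-rich regulator of cell division, fell by 0.52 (SE 0.14, adjusted p = 0.0161) and HLL fell by 0.35 (SE 0.11, adjusted p = 0.034), which was close to the limit of 0.35 and was lost in 7 of 18 alternatives. INO and SPL, of later ovule development, were near the floor and not called.

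The IQ67-domain (IQD) genes, whose products bind calmodulin and associate with microtubules, had called members in both backgrounds. Of 16 measured 7 fell and 2 rose without ANT, beside 8.81% lower and 8.32% higher over all probe sets paired with a gene, and 5 fell and 2 rose with ANT, beside 0.787% and 1.03%. IQD27 had a signal of 24.6, 35.6, 47.2 and 31.4 in seu ant and 185, 160.5, 189 and 168 in ant. It fell without overlap, at -2.38 (SE 0.25, adjusted p = 5.11e-05), and was at -1.50 (SE 0.25, adjusted p = 0.00796) with ANT present. IQD16 also fell in both, at -2.24 (SE 0.21, adjusted p = 2.38e-05) and -1.34 (SE 0.21, adjusted p = 0.0048). In neither was the difference between backgrounds called.

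IQD18 fell further without ANT, at -2.02 (SE 0.16, adjusted p = 8.34e-06) against -0.73 (SE 0.16, adjusted p = 0.0337), a difference of -1.29 (SE 0.23, adjusted p = 0.0102) that was kept in all 25 alternatives. IQD22 (-1.01), IQD23 (-0.93), IQD26 (-0.84) and iqd32 (-0.49) fell less. Against this direction iqd21 rose by 1.28 (SE 0.35, adjusted p = 0.0192), and by 1.49 (SE 0.35, adjusted p = 0.0436) with ANT present, and iqd33 rose by 0.84 (SE 0.21, adjusted p = 0.0102). The call of iqd21 was lost without seu ant replicate 1, at 1.17 (adjusted p = 0.0554), and without seu ant replicate 2, at 1.16 (adjusted p = 0.0586).

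**Figure D4:**
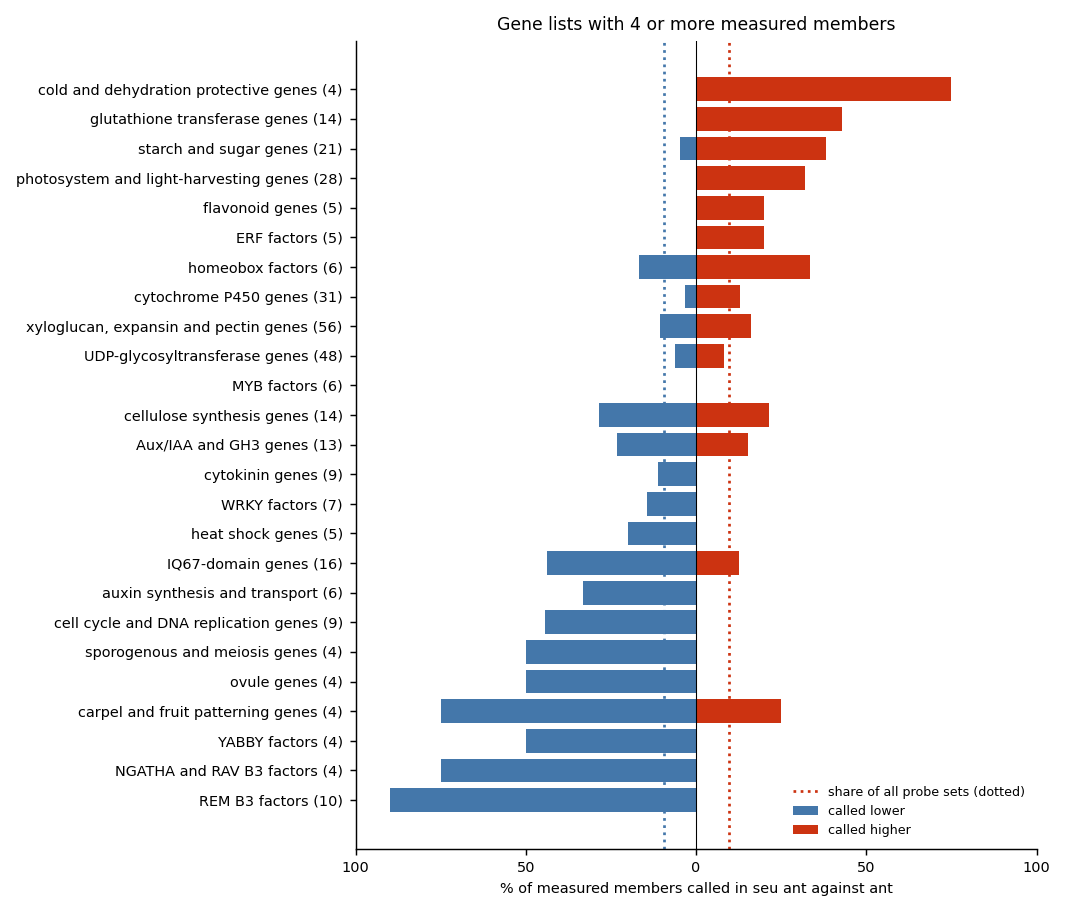
Percent of the measured members of each gene list with 4 or more measured members (number in brackets) that were called lower (left) and higher (right) in seu ant against ant, with the percent over all probe sets as dotted lines. The REM and NGATHA lists are called lower for 9 of 10 and 3 of 4 members, and the starch and sugar and glutathione transferase lists are called higher for 8 of 21 and 6 of 14.

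Among called probe sets over-expression was larger in size than under-expression, but a dim probe set can fall only to the floor. The 12 largest rises included BSMT1 and JMT, which methylate hormones, the cold-induced COR15A and the beta-amylase BAM5, beside 8 genes of other or unstated roles. BSMT1 encodes a methyltransferase that makes methyl salicylate and methyl benzoate. Its signal was 1956, 466, 328 and 1352 in seu ant and 1.50, 2.60, 4.27 and 1.07 in ant. All 4 ant arrays lay under the floor, so that BSMT1 was at least 49.8-fold higher in seu ant, with a fitted log2 difference of 5.64 (SE 0.69, adjusted p = 1.21e-04). On the arrays with ANT it was 76.6, 145, 4.84 and 6.33 in seu and 1.20, 1.06, 1.99 and 13.3 in wild type, where 2 of 4 seu arrays stood above the floor and the value of 1.36 (SE 0.69, adjusted p = 0.434) was not called. For BSMT1 the backgrounds differed by 4.28 (SE 0.97, adjusted p = 0.0264), a call lost in 2 of 24 alternatives.

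JMT, the methyltransferase that turns jasmonate into methyl jasmonate, rose in both backgrounds. Its signal was 1222, 1909, 396 and 732 in seu ant and 64.8, 60.5, 48.7 and 50.2 in ant, a log2 difference of 4.03 (SE 0.45, adjusted p = 7.27e-05). With ANT present it was 482, 367, 236 and 202 in seu and 48.2, 85.6, 69.5 and 29.7 in wild type, a log2 difference of 2.49 (SE 0.45, adjusted p = 0.0124). No arrays overlapped in either pair, and the difference between backgrounds of 1.54 (SE 0.64, adjusted p = 0.19) was not called. BSMT1 and JMT were the only 2 members of their list that were measured.

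The cold-induced chloroplast proteins COR15A and COR15B, which protect membranes during freezing, are neighbours in the gene table and rose together. COR15A had a signal of 1189.9, 958, 319 and 378 in seu ant and 35.5, 16.2, 3.93 and 52.2 in ant. Its log2 difference was 4.53 (SE 0.59, adjusted p = 1.96e-04), with 1 ant array under the floor, and was 4.04 with the floor at 32 and 4.92 without a floor. COR15B had 527, 523, 323 and 353 in seu ant and 47.2, 47.6, 89.5 and 54.4 in ant and rose by 2.87 (SE 0.25, adjusted p = 1.67e-05). In neither did the groups overlap.

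With ANT present COR15A was 112, 104, 111 and 26.6 in seu and 36.9, 44.1, 73.6 and 93.0 in wild type, overlapping, with a value of 0.41 (SE 0.59, adjusted p = 0.855), whereas COR15B rose by 1.23 (SE 0.25, adjusted p = 0.024). The difference between backgrounds was 4.12 (SE 0.84, adjusted p = 0.0179) for COR15A and 1.64 (SE 0.36, adjusted p = 0.0234) for COR15B, and both were kept in all 25 alternatives. The numbers in the array titles are consecutive, and the order of genotypes along them repeats. The arrays were split at this repeat into 2 serial runs, with 2 arrays of each genotype in each. The labels do not name these runs or call them batches. The rise of COR15A was 5.48 within the first run and 3.59 within the second. Of the other cold and dehydration genes COR47 rose by 1.36 (SE 0.40, adjusted p = 0.0268), a call lost in 8 of 17 alternatives, and LTI30 was at -0.09 (SE 0.43, adjusted p = 0.962). Of the list 3 of 4 genes thus rose, beside 8.32% over all probe sets paired with a gene.

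BAM5, a beta-amylase, gave one of the brightest signals of the comparison. Its signal was 16634, 19519, 15403 and 16007 in seu ant and 912, 1036, 657 and 661 in ant, a 21.0-fold rise and a log2 difference of 4.39 (SE 0.24, adjusted p = 5.28e-07). With ANT present it was 5454, 5163, 4402 and 5040.1 in seu and 302, 154, 209 and 120.1 in wild type, a log2 difference of 4.76 (SE 0.24, adjusted p = 7.72e-07). The rise was of like size in both backgrounds, with a difference of -0.36 (SE 0.33, adjusted p = 0.606). The ant arrays already stood above all wild-type arrays, so that the highest level was reached in seu ant. FH3, a formin and the neighbour of BAM5 in the gene table, rose by 3.81 (SE 0.49, adjusted p = 1.65e-04) and by 2.16 (SE 0.49, adjusted p = 0.0368), and its second probe set by 2.28 (SE 0.26, adjusted p = 7.27e-05).

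Sugar transporters and sugar enzymes rose with BAM5. Of 21 starch and sugar genes 8 rose and 1 fell, with a median of 0.92, beside 8.32% higher and 8.81% lower over all probe sets paired with a gene. With ANT present BAM5 was the only one called. The difference between backgrounds was called for only 2 of the 21, SUS6 and SWEET17, beside 2.5% higher over all probe sets paired with a gene. SWEET10, a sucrose exporter of the plasma membrane, had a signal of 653, 1023, 236 and 397 in seu ant and 22.4, 39.7, 36.4 and 82.8 in ant. It rose by 3.63 (SE 0.54, adjusted p = 4.83e-04), and its value with ANT present was 1.83 (SE 0.54, adjusted p = 0.117). The rise was 4.78 within the first serial run and 2.48 within the second. For SWEET10 the difference between backgrounds of 1.8 (SE 0.77, adjusted p = 0.204) was not called.

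SUS6, a sucrose synthase, had a signal of 218, 192, 82.9 and 134 in seu ant and 26.0, 13.8, 25.3 and 40.3 in ant. It rose by 2.53 (SE 0.41, adjusted p = 8.31e-04), against -0.07 (SE 0.41, adjusted p = 1) with ANT present, a difference of 2.60 (SE 0.58, adjusted p = 0.0243) that was lost in 2 of 24 alternatives. SWEET17, a vacuolar fructose carrier, had 1518, 903, 1185 and 1233 in seu ant and 243, 248, 262 and 232 in ant and rose by 2.27 (SE 0.23, adjusted p = 3.56e-05). SWEET4 (2.67), SWEET14 (1.77) and SWEET2 (1.54) also rose, so that 5 of 14 SWEET genes were called and none fell. Over all probe sets paired with a gene 8.32% were called higher and 8.81% lower. The median level of the starch and sugar list in ant was 4.80 on the log2 scale, near the floor, where a fall can hardly be seen. The call of SWEET14 was lost in 5 of the 8 fits without 1 array and in the fit of the 8 arrays alone.

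The sucrose phosphate synthases went both ways. ATSPS4F was under the floor on all 4 ant arrays and rose at least 2.41-fold (adjusted p = 0.0113). SPS2F had a log2 difference of -0.61 (SE 0.17, adjusted p = 0.0192) and fell, and was the only member of the list to do so. The calls of ATSPS4F and SPS2F were each lost in 2 alternatives, among them the fit of the 8 arrays alone.

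**Figure D5:**
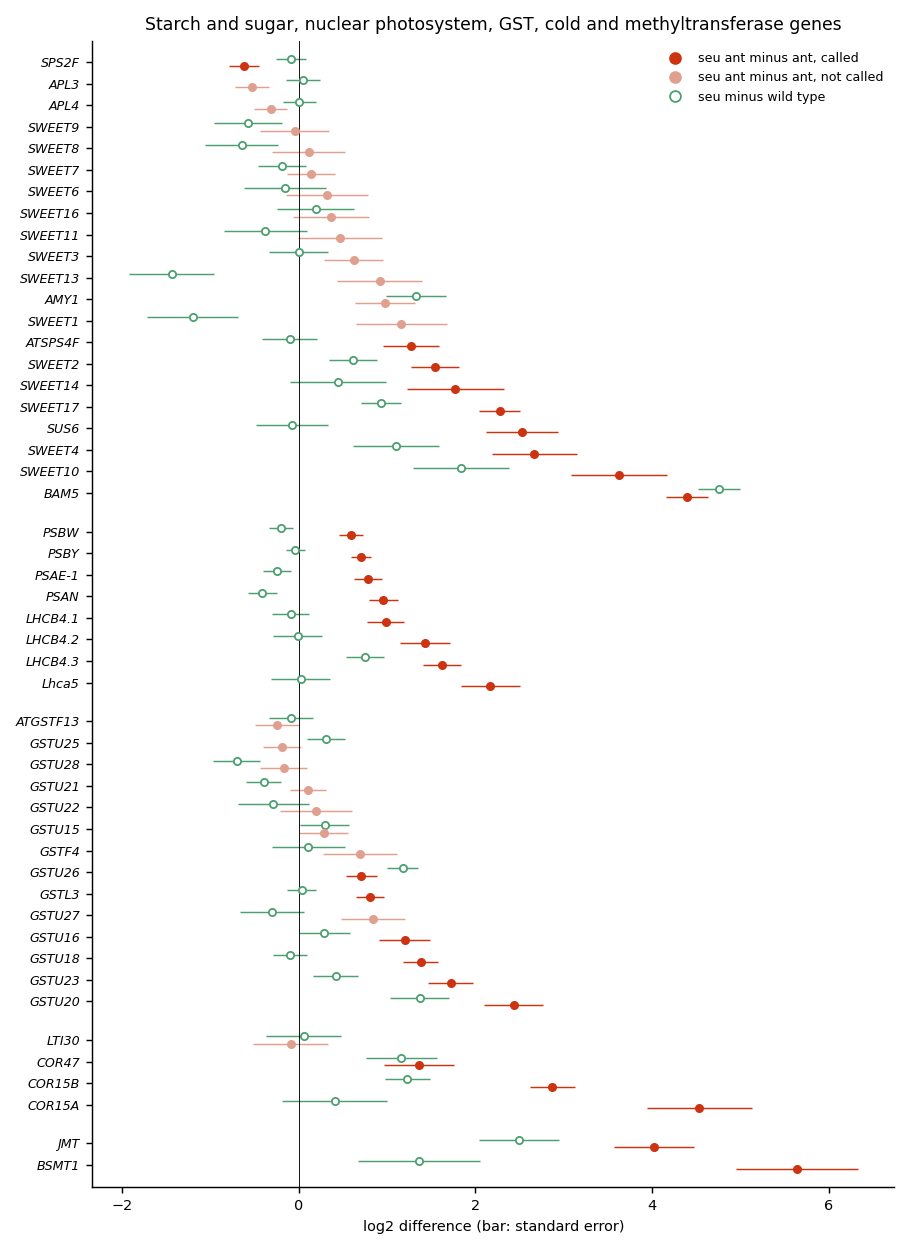
Log2 differences (points) with SE (lines) for starch and sugar, nuclear photosystem, glutathione transferase, cold and methyltransferase genes, in seu ant against ant (filled, paler where not called) and in seu against wild type (open). BAM5 has nearly the same value in both backgrounds, and Lhca5, SUS6 and COR15A are near 0 with ANT present and well above it without ANT.

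Photosystem genes of the nucleus and of the plastid were read apart. All 8 nuclear genes measured rose in seu ant against ant, by 0.59 to 2.17 with a median of 0.97, beside 8.32% over all probe sets paired with a gene. None of the 8 was called in seu against wild type, where their median was -0.06. Of 20 plastid genes 17 had values above 0, but they ran from -0.13 to 0.74 with a median of 0.29, overlapping the nuclear range, and only psbF was called (0.44, SE 0.12, adjusted p = 0.0195), a call lost in 3 alternatives. The difference between nuclear and plastid genes was not tested. The counts of values above 0 were the same when arrays were centred on their medians and after quantile normalization.

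Lhca5, an antenna protein of photosystem I, had a signal of 1093, 1393, 608 and 987 in seu ant and 291, 244, 124 and 254 in ant. Where ANT was present its signal was 633, 353, 543 and 395 in seu and 529, 297, 436 and 654 in wild type, in overlapping ranges. It rose by 2.17 (SE 0.33, adjusted p = 5.48e-04) without ANT and was at 0.02 (SE 0.33, adjusted p = 1) with ANT, and the difference of 2.15 (SE 0.47, adjusted p = 0.023) was kept in all 25 alternatives. In this gene the ant arrays were the lowest of the 4 genotypes.

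LHCB4.3, an antenna protein of photosystem II, had 1426, 1198, 891 and 1186 in seu ant and 350.3, 356, 345 and 469 in ant and rose by 1.62 (SE 0.22, adjusted p = 2.27e-04). Its relatives LHCB4.2 and LHCB4.1 rose by 1.43 (SE 0.28, adjusted p = 0.00275) and by 0.99 (SE 0.21, adjusted p = 0.00444), although the arrays of LHCB4.1 overlapped. Against wild type, ant was at -0.95 for LHCB4.2 and -0.69 for LHCB4.1 (adjusted p = 0.0685 and 0.0748), and seu ant at 0.48 and 0.29. For LHCB4.3 ant was at 0.48 and seu ant at 2.10 against wild type. The photosystem I subunit PSAN had 4026, 3289, 3407 and 3604 in seu ant and 2128, 2158, 1322 and 1874 in ant and rose by 0.96 (SE 0.16, adjusted p = 0.00112), against -0.41 (SE 0.16, adjusted p = 0.273) with ANT present. PSAE-1, PSBY and PSBW rose by 0.79, 0.71 and 0.59. The difference between backgrounds was called for 5 of the 8 nuclear genes, Lhca5, PSAN, PSAE-1, PSBY and PSBW, at 0.75 to 2.15, with that of PSBW lost in 10 of 25 alternatives. The stomatal lineage markers SPCH, MUTE and FMA had a summed signal of 104 to 189 across the ant arrays and 192 to 434 across the seu ant arrays, with none of the 3 called, and the part of other tissue in the photosystem values was not tested.

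Glutathione transferases, which conjugate glutathione to reactive compounds, rose in 6 of 14 members and fell in none, with a median of 0.70, beside 8.32% higher and 8.81% lower over all probe sets paired with a gene. The median level of this list in ant was 5.33 on the log2 scale, not far above the floor, which limits the falls that can be seen. With ANT present 1 rose, GSTU26. GSTU20 had a signal of 2124, 2682, 1319 and 1926 in seu ant and 420.2, 375, 300.3 and 359.9 in ant and rose by 2.43 (SE 0.33, adjusted p = 2.61e-04). GSTU18 rose by 1.38 (SE 0.19, adjusted p = 3.07e-04), and its difference between backgrounds of 1.47 (SE 0.27, adjusted p = 0.0118) was kept in all 25 alternatives. GSTU23 (1.72), GSTU16 (1.20), GSTL3 (0.81) and GSTU26 (0.71) rose less.

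Among cytochromes P450, a large family of oxidative enzymes, 4 of 31 rose and 1 fell, not far from the 8.32% and 8.81% over all probe sets paired with a gene. CYP71B26 had a signal of 2926, 2008, 2531 and 2610.4 in seu ant and 479, 402, 220.2 and 308 in ant, a log2 difference of 2.88 (SE 0.26, adjusted p = 1.75e-05). CYP71B6 rose by 2.42 (SE 0.21, adjusted p = 1.45e-05), and further than with ANT present by 1.43 (SE 0.30, adjusted p = 0.0197). CYP96A1 (1.73, SE 0.42, adjusted p = 0.0106) and CYP71B34 (0.85, SE 0.28, adjusted p = 0.0468) were less firm, the second losing its call in 11 of 18 alternatives.

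UDP-glycosyltransferases attach sugars to hormones and secondary metabolites. Of 48 measured 3 fell and 4 rose, near the 8.81% lower and 8.32% higher over all probe sets paired with a gene. UGT74F1, which glucosylates salicylate, had a signal of 3.01, 6.86, 4.99 and 34.5 in seu ant and 146, 79.8, 104 and 94.7 in ant and fell by 2.42 (SE 0.32, adjusted p = 1.91e-04). Of these, 3 of the 4 seu ant arrays lay under the floor. UGT76C2, which glucosylates cytokinins, and UGT87A2 fell too, at -1.36 (SE 0.33, adjusted p = 0.0106) and -1.19 (SE 0.30, adjusted p = 0.0133), and the arrays of UGT87A2 overlapped. The 4 that rose included UGT78D3 (1.31) and UGT76E11 (1.14). Of 5 flavonoid genes only PAP1, a MYB factor that turns on anthocyanin synthesis, was called, beside 8.32% higher over all probe sets paired with a gene. PAP1 rose by 1.51 (SE 0.28, adjusted p = 0.00214), with 2 ant arrays under the floor, and its value ran from 0.73 to 2.28 over the alternatives.

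Cell wall genes were called in both directions. Of 56 genes for xyloglucan enzymes, expansins, pectin enzymes and related wall proteins 6 fell and 9 rose, with a median of 0.00, beside 8.81% lower and 8.32% higher over all probe sets paired with a gene. AT5G48900 fell by 2.05 (SE 0.22, adjusted p = 4.91e-05). TBL30, of a family of acetyltransferases that act on wall polysaccharides, had a signal of 82.9, 125, 108 and 111 in seu ant and 30.8, 47.7, 20.6 and 23.0 in ant and rose by 1.87 (SE 0.29, adjusted p = 5.92e-04). XTH32, a xyloglucan endotransglucosylase, rose by 1.75 (SE 0.17, adjusted p = 3.01e-05), and by 1.42 (SE 0.17, adjusted p = 9.27e-04) with ANT present.

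AT2G31110 rose by 1.79 (SE 0.43, adjusted p = 0.00958) on its brighter probe set, but the second probe set was at -0.03 (SE 0.39, adjusted p = 1), so the 2 probe sets of this gene disagreed. Of 14 genes of cellulose and related glycan synthesis 4 fell and 3 rose. Over all probe sets paired with a gene 8.81% were called lower and 8.32% higher. CSLA01, CSLC04 and CSLA03 rose by 2.73 (SE 0.77, adjusted p = 0.0224), 1.61 (SE 0.36, adjusted p = 0.00604) and 1.18 (SE 0.29, adjusted p = 0.0112), with 944, 515, 75.3 and 169 in seu ant and 72.5, 44.8, 30.3 and 32.2 in ant for the first, whose call was lost in 6 of 18 alternatives. Within the first serial run the rise of CSLA01 was 3.61 and within the second 1.85. COBL7 fell by 0.77 (SE 0.12, adjusted p = 7.24e-04), and its difference between backgrounds of -0.91 (SE 0.17, adjusted p = 0.0131) was kept in all 25 alternatives.

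Several further large rises were in genes whose role is not stated here. AT2G25510 had a signal of 1217, 1522, 833 and 1852 in seu ant and 5.64, 35.8, 62.2 and 89.6 in ant, a log2 difference of 4.94 (SE 0.57, adjusted p = 8.04e-05) with 1 ant array under the floor, which was 4.69 with the floor at 32 and 5.24 without a floor. With ANT present its value was 1.29 (SE 0.57, adjusted p = 0.341), and the difference of 3.66 (SE 0.80, adjusted p = 0.0234) was lost in 1 of 25 alternatives. AT1G11850 had 1135, 337, 328 and 414 in seu ant and 31.8, 15.7, 23.0 and 25.5 in ant and rose by 4.35 (SE 0.48, adjusted p = 6.46e-05), against 0.49 (SE 0.48, adjusted p = 0.734) with ANT present. ECS1 had 1032, 1046, 316 and 1106 in seu ant and 65.1, 48.4, 38.1 and 89.2 in ant and rose by 3.78 (SE 0.44, adjusted p = 8.93e-05), against 0.37 (SE 0.44, adjusted p = 0.795). In all 3 the lowest seu ant array was above the highest ant array by a wide margin.

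BETA-VPE, a vacuolar processing protease, had a signal of 573, 437, 415 and 556 in seu ant and 46.3, 35.2, 35.9 and 34.1 in ant and rose by 3.71 (SE 0.35, adjusted p = 2.64e-05). It also rose with ANT present, by 2.01 (SE 0.35, adjusted p = 0.00971). JAL23 (3.81), AT1G04660 (4.00) and AT5G59305 (3.87) completed the 12 largest rises. Of the last 3 only AT5G59305 was also called with ANT present, at 1.96 (SE 0.42, adjusted p = 0.0276), and in none of them was the difference between backgrounds called.

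In a few genes the direction or the starting level differed between backgrounds. SCPL32, a serine carboxypeptidase-like gene, had a signal of 82.0, 119, 150.4 and 151 in seu ant and 186, 195, 202 and 194 in ant. With ANT present it was 818, 591, 818 and 773 in seu and 94.1, 79.4, 112 and 74.1 in wild type. Reducing SEU thus raised it by 3.07 (SE 0.19, adjusted p = 4.56e-06) in the wild-type background whereas in the ant background it was under-expressed, at -0.67 (SE 0.19, adjusted p = 0.0208). The difference of -3.74 (SE 0.26, adjusted p = 5.69e-05) was kept in all 25 alternatives, whereas the fall itself was lost in the fit of the 8 arrays alone (adjusted p = 0.0661) and without seu ant replicate 2 (adjusted p = 0.0501).

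CCL (CCR-LIKE), a gene whose transcript cycles through the day, had a signal of 2275, 1786, 1204 and 946 in seu ant and 361, 202, 278 and 202 in ant. On the arrays with ANT it was 1004, 948, 389 and 1390.2 in seu and 2015, 554, 1811 and 1685 in wild type, in overlapping ranges. It rose by 2.54 (SE 0.46, adjusted p = 0.0018) without ANT and was at -0.68 (SE 0.46, adjusted p = 0.612) with ANT. The ant arrays were the lowest of the 4 genotypes, and the seu ant arrays overlapped those of wild type. ERF-1, an ethylene response factor, had a signal of 65.9, 70.7, 71.0 and 89.3 in seu ant and 11.9, 25.5, 5.88 and 54.2 in ant. Its wild-type arrays, at 83.8, 58.6, 88.2 and 44.3, overlapped those of seu ant. It had a log2 difference of 1.60 (SE 0.34, adjusted p = 0.00507) and a difference between backgrounds of 2.03 (SE 0.49, adjusted p = 0.0331) that was lost in 11 of 24 alternatives.

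A smaller set of genes responded to SEU with nearly the same size in both backgrounds. AT5G48490 had a signal of 81.1, 139.6, 129 and 96.4 in seu ant and 620.0, 388, 350.4 and 478 in ant, and 177, 276, 264 and 525 in seu and 1442, 1033, 1293 and 1410.5 in wild type. Its log2 difference was -2.04 (SE 0.29, adjusted p = 3.63e-04) without ANT and -2.16 (SE 0.29, adjusted p = 0.00225) with ANT. AT5G62960 was at -1.53 (SE 0.15, adjusted p = 3.05e-05) and -1.67 (SE 0.15, adjusted p = 1.29e-04), and AT5G57910 at -1.17 (SE 0.18, adjusted p = 4.87e-04) and -1.24 (SE 0.18, adjusted p = 0.00272). In these genes, as in SEU, the steps differed by no more than 0.14. They were chosen for this likeness, which is therefore a description.

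In the other direction bZIP44, a leucine zipper factor, had a signal of 1728, 1748, 1095 and 1605 in seu ant and 497, 657, 458 and 644 in ant, and 687, 623, 923 and 618 in seu and 255, 241, 335 and 237 in wild type. It rose by 1.45 (SE 0.19, adjusted p = 1.81e-04) and by 1.41 (SE 0.19, adjusted p = 0.002). AT4G30650 rose by 2.77 (SE 0.42, adjusted p = 5.18e-04) and by 2.87 (SE 0.42, adjusted p = 0.00322), and its neighbour AT4G30660 rose without ANT by 1.15 (SE 0.25, adjusted p = 0.00521). AT3G13662 rose by 1.85 (SE 0.20, adjusted p = 6.45e-05) and by 1.80 (SE 0.20, adjusted p = 6.54e-04), as did its neighbour AT3G13660 without ANT, by 1.50 (SE 0.38, adjusted p = 0.0132). UGT78D3, a flavonol glycosyltransferase, rose by 1.31 (SE 0.26, adjusted p = 0.00323) and by 1.32 (SE 0.26, adjusted p = 0.0192). In bZIP44 and AT3G13662 the ant arrays stood above all wild-type arrays.

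Short lists of regulators and other genes held at most 2 calls each, among too few genes to read against the 8.81% lower and 8.32% higher over all probe sets paired with a gene. None of the 6 factors in the MYB list, which did not hold PAP1, and none of 3 tapetum genes was called, and of 5 heat shock genes 1 fell, Hsp70-2 (-0.57, SE 0.12, adjusted p = 0.00545). Of 7 WRKY factors WRKY22 fell (-0.87, SE 0.27, adjusted p = 0.0354), a call lost in 6 of 18 alternatives, and of 2 NAC factors NAC014 fell (-0.61, SE 0.14, adjusted p = 0.00679), a call lost in the fit of the 8 arrays alone. CAL, a floral MADS-domain factor, rose by 1.37 (SE 0.40, adjusted p = 0.0273), a call lost in 6 of 17 alternatives. VIM1, which helps maintain DNA methylation, fell by 0.54 (SE 0.11, adjusted p = 0.00372), and AGO7, the argonaute of the trans-acting siRNA pathway that restricts abaxial fate regulators, rose by 0.84 (SE 0.14, adjusted p = 8.95e-04).

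Among the 126 called genes named here, the median rise was 1.74 within the first serial run and 1.75 within the second, and the median fall was -1.47 and -1.28. Where the arrays of a gene do not overlap its direction within a run is fixed by that choice, so these values are a description. The count of called probe sets within a run was smaller, at 1360 and 480 with 2 arrays per genotype. In seu against wild type 15 lower and 21 higher were called within the first run and none within the second, where limma gave 1898 probe sets an unadjusted p under 0.05. Differences between backgrounds were called for 67 probe sets within the first run and 15 within the second.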

How the data were processed

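Total RNA from hand-dissected gynoecia was measured on 16 ATH1 arrays with 1 colour, 4 per genotype, and samples were grouped by the genotype in their labels. The authors deposited intensities on a linear scale, made with MAS5 (named in the submitters' processing notes, version not given in the sources used here) and scaled to a common trimmed mean. The study's own tests used another normalization, whose inputs were not used here. The number of arrays limits the precision.

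The 64 control probe sets were removed from the deposited signal, a floor of 16 was applied and the values were converted to log2. A linear model with a mean for each genotype over all 16 arrays was applied to 22746 probe sets using limma 3.58.1 with empirical Bayes moderation (with statmod 1.5.0 under R 4.3.3), with Benjamini-Hochberg adjustment within each comparison. A call needed an adjusted p under 0.05 and an absolute log2 difference over 0.35. The scripts were tested on simulated data. Figures were drawn with matplotlib 3.10.9 (Python 3.11.15, pandas 2.3.3).

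Of the probe sets 13853 were paired with 1 gene, 13513 of them through the platform annotation and 340 through a supplementary table of the study. The other 8893 were not paired with 1 gene here, among them 503 for which the annotation gives several, so that gene families are covered in part and a gene is called measured only where a probe set was paired with it. Genes with more than 1 probe set were represented by the brightest. Gene symbols and neighbours came from the TAIR10.1 gene table, and sequences were not used here. Named were SEU, the 12 largest falls and rises among called probe sets whose arrays did not overlap, the 6 largest differences between backgrounds of each sign, up to 4 genes alike in both backgrounds per direction, up to 4 called members of each of 43 gene lists, and further members of the lists described. Of the lists 2 had no member paired with a probe set, vascular markers and petal, stamen and sepal identity genes. The members and lists were chosen with earlier results of these data known. Replicates are separate pools per the labels. Alternatives were another floor, scaling, filter or variance model, the 8 arrays alone, the serial run of the arrays as a block, and each array left out. Another fold threshold and each serial run alone were applied only to counts of called probe sets, and do not enter the alternatives counted for single genes.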

Additional observations from a re-analysis of the deposited data

Results flagged for a closer look

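Single arrays far from the other 3 of their genotype were seen in 20 of 262 groups of 4 arrays (7.63%). For normally distributed values chance gives about 1 in 20, but these values were floored and the genes were selected. Where the other 3 arrays lie at the floor the gap is 1 by construction, so the share cannot be read against chance. The gap to the nearest array is given as a share of the range of the 4, on log2 values. SEU was lowest on seu ant replicate 1, at a signal of 235 against 267 to 273 on the others (gap 0.857). This array was also the lowest for IAA30 (41.7 against 73.5 to 77.5, gap 0.914) and IQD22 (155 against 194 to 201, gap 0.861), and the highest for KNAT4 (116 against 70.5 to 74.6, gap 0.889) and SPL, where the others lay under the floor (22.3, gap 1). On seu ant replicate 3 ECS1 was low (316 against 1032 to 1106, gap 0.945) and GSTU26 high (646 against 471 to 485, gap 0.902). On seu ant replicate 4 UGT74F1 (34.5, gap 1) and LTI30 (50.1, gap 1) were above the floor while the other arrays were under it.

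Among the ant arrays replicate 3 stood apart most often. It was low for CYP96A1 (20.1 against 72.4 to 80.1, gap 0.927), HAT2 (332 against 473 to 492, gap 0.900), VDD (158 against 243 to 253, gap 0.908) and PSBW (2676 against 3796 to 3952, gap 0.896), and high for AT5G48900 (673 against 431 to 452, gap 0.893). On ant replicate 1 PAP1 (28.3 against at most 16.6, gap 0.936) and iqd21 (124 against 105 to 106, gap 0.909) were high. On ant replicate 2 AT5G59305 (40.0 against at most 16.7, gap 0.956) and IAA33 (27.7 against values under the floor, gap 1) were high and ICU2 was low (431 against 708 to 772, gap 0.851). LHCB4.3 was high on ant replicate 4 (469 against 345 to 356, gap 0.897). Without ant replicate 3, VDD kept its call.

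The effect of reducing SEU differed between the backgrounds for 40 named genes, by the interaction in limma. Over all probe sets this difference was called for 5.08%, with 2.32% negative and 2.77% positive. Some of the genes were named for the size of this difference and others for the size of their change. Their count is therefore a description and cannot be read against that share. The log2 difference between backgrounds was negative for 23 of them. Among regulators it was -2.30 for REM22, -2.60 for ARR15, -2.38 for YAB3, -1.82 for VDD, -1.74 for NGA1, -1.30 for AT5G09780, -1.04 for HAT2, -0.98 for PHV and -0.85 for FIL. Among auxin, receptor, wall and cell division genes it was -1.91 for YUC4, -1.50 for IAA30, -0.83 for EMS1, -1.29 for IQD18, -1.25 for AT5G48900, -0.91 for COBL7, -0.86 for AUR1 and -0.62 for VIM1. The calls of AT5G48900, AUR1 and VIM1 were lost in 9, 1 and 15 of 25 alternatives. The others were AT5G17080 (-4.60), SCPL32 (-3.74), AT1G68780 (-2.38), AT5G66940 (-2.29), AT1G03720 (-2.17) and AT1G74490 (-1.97).

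For 17 it was positive. The sizes were 4.28 for BSMT1, 4.12 for COR15A and 1.64 for COR15B. Sugar and photosystem genes had 2.60 for SUS6, 1.34 for SWEET17, 2.15 for Lhca5, 1.37 for PSAN, 1.03 for PSAE-1, 0.79 for PSBW and 0.75 for PSBY. The calls of SWEET17 and PSBY were lost in 11 and 1 of 25 alternatives. The value was 1.47 for GSTU18, 1.43 for CYP71B6 and 2.03 for ERF-1. The others were AT1G11850 (3.86), AT2G25510 (3.66), ECS1 (3.40) and CCL (3.22).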

How the results depend on the processing

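In seu ant against ant 4327 probe sets were called, and 3563 to 4434 without 1 of the 8 arrays (1712 to 2156 lower, 1851 to 2278 higher). The other settings gave 3425 (the 8 arrays alone) to 4807 (arrays centred on their medians), except that a log2 difference over 1 left 1403 (311 lower, 1092 higher). Each serial run taken alone, an alternative chosen after seeing the data, gave 1360 (575 lower, 785 higher) and 480 (204 lower, 276 higher), with fewer arrays in the fit. In seu against wild type the 498 calls became 252 at a log2 difference over 1 and 274 to 459 without 1 array, with 304 and 331 without wild type replicate 1 or 2 and 274 and 309 without seu replicate 1 or 2. The 1156 called differences between backgrounds became 611 without a floor, 455 at a log2 difference over 1 and 682 to 1454 without 1 array, with 766 and 682 without seu replicate 1 or 3, 702 without seu ant replicate 2 and 756 without wild type replicate 4. The cause of these shifts was not tested.

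Centring arrays on their medians changed the share of higher calls from 51.0% to 40.4% in seu ant against ant, from 58.2% to 75.8% in seu against wild type and from 54.4% to 31.1% for the difference between backgrounds, whose median over all probe sets moved to -0.15. For single genes the alternatives left out the other fold thresholds and the serial runs taken alone. Of 132 named genes 110 kept their side of the threshold in every one of these alternatives, 21 lost their call in at least 1, 1 gained a call and none reversed. Of the 40 named differences between backgrounds that were called, 23 kept the call in every such alternative, 17 lost it in at least 1 and none changed sign. No paired analysis was possible because the labels give no shared replicate numbers. The serial run, a split inferred from the order of the array titles and not stated in them, was also used as a block. With it 4321, 498 and 1123 probe sets were called in these 3 comparisons. Signals near the floor of 16 limit what can be said of dim probe sets, of which 1202 lay at the floor on all 8 arrays.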

Other observations

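Transcripts below the floor in 1 genotype formed a small, mostly one-sided set. Of the probe sets called higher in seu ant against ant 72 had all 4 ant arrays at the floor, BSMT1 and ATSPS4F among them, whereas 22 of those called lower had all 4 double mutant arrays there. Fold changes of these transcripts are lower bounds.

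For the genes named for the size or likeness of their change or as cold genes, 32 adjacent genes in the gene table were measured, and 11 of them were called in the same direction, a count in which COR15A with COR15B and BAM5 with FH3 enter from both sides. Over all probe sets paired with a gene 8.81% were called lower and 8.32% higher. Beside the pairs described, SEU and its neighbour AT1G43860 both fell, the neighbour at -0.40 (SE 0.09, adjusted p = 0.00651). AT4G00170, beside YAB3, was at -0.49 (SE 0.12, adjusted p = 0.00896), AT5G48500, beside AT5G48490, at -0.94 (SE 0.16, adjusted p = 0.0011), and AT1G19650, beside JMT, at 0.59 (SE 0.19, adjusted p = 0.0445). Small lists of glucosinolate genes (2 measured, 0.01 and 0.60), cuticle and lipid transfer genes (2 measured, -0.28 and 0.30) and meristem and boundary genes (2 measured, -0.46 and 0.72) had no called member.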
